A study of Homo sapiens with 6 samples.

Results

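The DNA damage response is the set of pathways by which a cell detects broken, crosslinked or mispaired DNA, halts the cell cycle and repairs the lesion. Breaks are resected and repaired by homologous recombination or rejoined directly, stalled replication forks signal through the kinase ATR to CHEK1, interstrand crosslinks are handled by the Fanconi anaemia pathway, and base damage and nicks are handled by PARP1 and its partners. Many proteins of these pathways are modified by SUMO, a small protein that is attached to its targets through UBC9, the SUMO-conjugating enzyme. Expression of many of these genes also rises as cells enter S phase.

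Described here are 38 DNA damage response and repair genes, chosen by symbol, among the 58174 genes listed for each sample. They comprise 10 genes of homologous recombination, 5 of end processing and resolution, 6 checkpoint kinases and mediators, 4 genes of the chromatin response at breaks, 10 Fanconi anaemia genes and 3 genes of single-strand break and mismatch repair. All 38 symbols had a row in the files, and all 38 passed the filter on low values (0.5 RPKM or more in 3 samples or more).

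RNA-seq of polyA RNA was carried out in T24, an established human bladder cancer cell line. The cells were stably infected with lentivirus and selected with puromycin, and carried either a scrambled control shRNA (shRNA-NC, n = 3) or 1 shRNA against UBC9 (shRNA-UBC9, n = 3). No age or time point is given in the labels, and no damaging agent is named for these samples. Nothing states that the samples of a group came from separate cultures, so p-values measure only the spread between these samples, which may be technical. Because a single shRNA sequence was used, the knockdown and any effect particular to that sequence cannot be told apart.

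Expression is given as RPKM, reads scaled to the length of the gene and to the mapped reads of the sample. The whole reads behind the RPKM values could be recovered, and the totals ranged from 28219032 to 36058872 mapped reads per sample. Within the 38 genes, the reads of a gene in a sample ranged from 288 (FANCC) to 12448 (PARP1), so that the counting error of a value was at most 5.9%, which covers counting only. Of the 6 epithelial markers, 5 passed the filter, with summed levels of 938 to 1108 RPKM in shRNA-NC and 426 to 563 RPKM in shRNA-UBC9, while CDH1, a defining epithelial marker, was listed at or near 0 in every sample, as were the 4 uroplakins, which mark differentiated urothelium. The other 2 urothelial markers, GATA3 and PPARG, passed the filter and fell, and the 6 genes of this list summed to 22.9 to 30.1 RPKM in shRNA-NC and 6.502 to 11.2 RPKM in shRNA-UBC9. The part of this in the results was not tested. Summed levels of leukocyte, endothelial and fibroblast markers were between 0.307 and 3.26 RPKM in every sample. The defining markers PTPRC, PECAM1 and DCN were at or near 0 in all 6 samples. Of the 5 endothelial markers, 1 passed the filter and fell (log2 fold change -2.20). This list summed to 2.635 to 3.26 RPKM in shRNA-NC and 0.349 to 1.07 RPKM in shRNA-UBC9. Of the 6 fibroblast markers, 1 passed the filter and rose (log2 fold change 0.95). Of the 6 leukocyte markers, 2 passed the filter and were not called.

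More of the 38 genes were down-regulated than up-regulated. After adjustment over all 12428 tested genes by limma, 11 of 38 genes fell in shRNA-UBC9 (28.9%), against 18.0% of all tested genes, and 1 of 38 rose (2.63%), against 18.8% of all tested genes. The genes that fell were FANCC, CHEK1, FANCG, RAD51AP1, FANCD2, MDC1, FANCE, BARD1, CLSPN, FANCI and PARP1, and the gene that rose was RAD50. Without shRNA-NC replicate 1 the lower count among the 38 was 7, and without shRNA-NC replicate 3 it was 9, while that among all tested genes was 1401 rather than 2237. The other 26 genes did not pass the test. An unadjusted p below 0.05 was found for 17 genes with a lower level and for 2 with a higher level. The share of all tested genes at this threshold was not counted, so these counts have no background to be read against.

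Most differences were small. The log2 fold change on the log2(RPKM + 0.1) scale was below 0 for 30 of 38 genes and above 0 for 8, with a median of -0.22 and a range of -1.29 to 0.33. The median over all tested genes was 0.0048. Differentially expressed genes (DEGs), defined by an adjusted p below 0.05 and a log2 fold change beyond 1 in either direction, were FANCC and CHEK1. Thus 2 of 38 genes were down-regulated DEGs, against 2.70% of all tested genes, and 0 of 38 were up-regulated DEGs, against 5.20%. All 3 shRNA-UBC9 samples lay below all 3 shRNA-NC samples for 16 of 38 genes, against 25.4% of all tested genes, and above them for 1 of 38, against 25.7%. These counts describe the list and were not tested as a set.

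**Figure D1:**
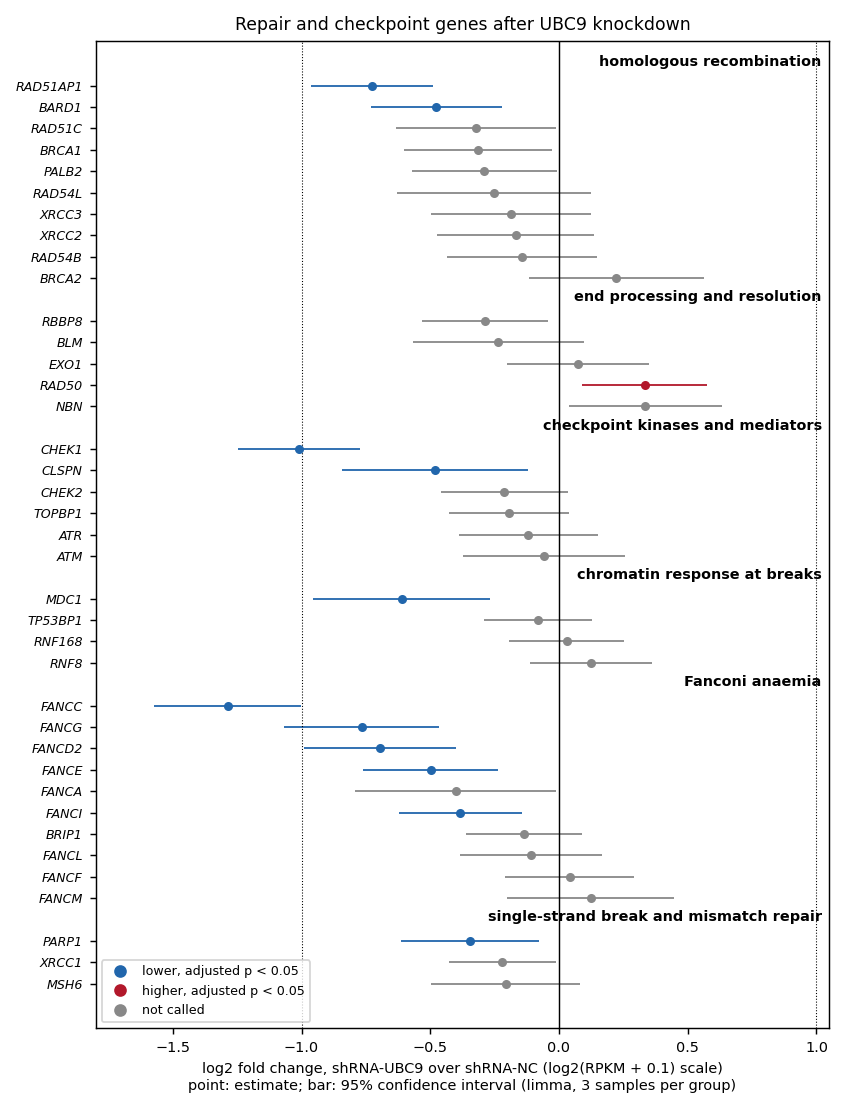
Log2 fold change of each of the 38 genes (x axis, shRNA-UBC9 over shRNA-NC on the log2(RPKM + 0.1) scale) with its 95% confidence interval from limma (3 samples per group), grouped by role; dotted lines mark -1 and 1. The 11 blue genes fell and RAD50, in red, rose, while the 26 grey genes did not pass the test, and FANCC and CHEK1 lie beyond -1.

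To show what the regions upstream of these genes share, promoter windows of 250 bases before to 50 bases after the transcription start were taken from RefSeq (GRCh38.p14). They were found for 35 of the 38 genes, with FANCI, NBN and RAD54B unmatched, and where a gene had several windows the one listed at the top was used. On both strands, these were searched for 4 E2F-type octamers (TTTCCCGC, TTTCGCGC, TTTGCCGC and TTTGGCGC), for the CHR element TTTGAA and for CCAAT. E2F factors and the CCAAT-binding factor NF-Y are known regulators of genes expressed in S phase and mitosis. Shown here are the windows of the most strongly down-regulated gene, FANCC (chr9:95317660-95317959, minus strand), of CHEK1 (chr11:125625979-125626278, plus strand), of FANCD2 (chr3:10026187-10026486, plus strand) and, as the up-regulated gene, of RAD50 (chr5:132556727-132557026, plus strand). Each is written 5′ to 3′ on the strand of the gene, and capitals mark the matches.
FANCC: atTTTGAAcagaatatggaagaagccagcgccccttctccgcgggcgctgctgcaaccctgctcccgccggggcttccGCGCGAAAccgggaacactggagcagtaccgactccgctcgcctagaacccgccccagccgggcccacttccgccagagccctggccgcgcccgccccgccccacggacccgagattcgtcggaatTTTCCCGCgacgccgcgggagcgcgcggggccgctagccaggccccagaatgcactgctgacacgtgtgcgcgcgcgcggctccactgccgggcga
CHEK1: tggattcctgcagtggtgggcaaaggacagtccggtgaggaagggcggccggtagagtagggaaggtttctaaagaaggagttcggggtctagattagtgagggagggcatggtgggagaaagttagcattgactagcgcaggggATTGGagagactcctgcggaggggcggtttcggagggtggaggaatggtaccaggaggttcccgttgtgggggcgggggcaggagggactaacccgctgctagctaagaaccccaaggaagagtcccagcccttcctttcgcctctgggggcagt
FANCD2: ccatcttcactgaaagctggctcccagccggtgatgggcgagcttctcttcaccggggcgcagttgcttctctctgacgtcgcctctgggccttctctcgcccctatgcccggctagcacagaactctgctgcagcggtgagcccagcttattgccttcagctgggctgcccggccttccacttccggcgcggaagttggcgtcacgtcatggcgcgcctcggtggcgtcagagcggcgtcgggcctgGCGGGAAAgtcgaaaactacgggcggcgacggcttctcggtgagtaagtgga
RAD50: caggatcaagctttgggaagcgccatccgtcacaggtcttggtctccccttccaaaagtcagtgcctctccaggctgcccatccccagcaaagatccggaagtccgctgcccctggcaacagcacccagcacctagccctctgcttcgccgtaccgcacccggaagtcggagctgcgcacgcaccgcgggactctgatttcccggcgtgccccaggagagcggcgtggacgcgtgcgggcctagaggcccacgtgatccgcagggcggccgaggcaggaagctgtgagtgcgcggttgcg

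In these windows FANCC held 2 E2F-type matches, starting at bases -172 and -46 from the start site, and a CHR match at -248. FANCD2 held 1 E2F-type match at -2, CHEK1 held only a CCAAT match at -105, and RAD50 held none of the motifs. CHEK1 has 3 listed windows and FANCC 2, and those not at the top were not searched. The searched CHEK1 window, at 125625979-125626278, lies inside the GENCODE 44 gene span, which starts at 125625163. Those of FANCC and RAD50 also lie inside their spans. The FANCC window, at 95317660-95317959, is far from the upstream end of its span, 95426796 on the minus strand. The RAD50 window, at 132556727-132557026, comes after a span start of 132556019. For these 3 genes the motifs were therefore not searched at the outermost annotated 5′ end. Across the matched promoters, an E2F-type octamer was present in 8 of 35 (22.9%), compared with 5.6% of 9180 promoters of tested genes and 3.3% of all 27305 promoters. It was present in 3 of 10 promoters of genes that fell (30.0%) and in 5 of 24 of genes that did not pass the test (20.8%). CCAAT was found in 18 of 35 (51.4%), against 37.1% for tested genes and 35.7% for all promoters, and in 4 of the 10 that fell and 14 of the 24 that did not pass. The CHR element was found in 5 of 35 (14.3%), against 9.3% for tested genes and 15.4% for all promoters. Letters that match are a description and do not show that a factor binds there.

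Among the described groups, the Fanconi anaemia genes held the most down-regulated members (median log2 fold change -0.39). Of the 10, 5 fell and 0 rose, against 18.0% and 18.8% of all tested genes. Of 11 further Fanconi genes, 2 fell (18.2%), a share near that of all tested genes. In this pathway a core complex that includes FANCA, FANCC, FANCE, FANCF, FANCG and the ubiquitin ligase FANCL is recruited by the translocase FANCM to a blocked fork and ubiquitinates the FANCD2-FANCI clamp. FANCC (chr9:95099054-95426796, minus strand) was measured at 2.63, 3.02 and 2.53 RPKM in shRNA-NC and 1.10, 0.978 and 1.10 RPKM in shRNA-UBC9. The 3 knockdown samples were all below 1.2 RPKM and all control samples above 2.5 RPKM, so the groups did not overlap (log2 fold change -1.29, 95% confidence interval -1.57 to -1.002, adjusted p = 2.56e-04). FANCG was measured at 15.2, 14.4 and 13.6 RPKM in shRNA-NC and 7.01, 8.54 and 10.02 RPKM in shRNA-UBC9, with replicate 1 lowest and replicate 3 highest in the knockdown (log2 fold change -0.77, 95% confidence interval -1.07 to -0.46, adjusted p = 0.00310). FANCE was measured at 5.84, 5.98 and 5.28 RPKM in shRNA-NC and 3.55, 3.94 and 4.56 RPKM in shRNA-UBC9, again without overlap (log2 fold change -0.50, 95% confidence interval -0.76 to -0.24, adjusted p = 0.0109). FANCC, FANCE and FANCG are therefore the core complex genes that fell.

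The clamp genes fell as well. FANCD2, the ubiquitinated subunit (chr3:10026370-10101932, plus strand), was measured at 6.69, 8.04 and 6.55 RPKM in shRNA-NC and 3.71, 4.50 and 4.85 RPKM in shRNA-UBC9, and the highest knockdown sample remained below the lowest control (log2 fold change -0.69, 95% confidence interval -0.99 to -0.40, adjusted p = 0.00435). Its partner FANCI, which had the highest level of the 10 described Fanconi genes, was measured at 21.8, 23.1 and 21.8 RPKM in shRNA-NC and 14.8, 17.8 and 18.7 RPKM in shRNA-UBC9 (log2 fold change -0.38, 95% confidence interval -0.62 to -0.14, adjusted p = 0.0219). The groups of FANCI did not overlap, but the call was lost when any 1 of the 3 shRNA-NC samples was left out (adjusted p = 0.0523, 0.0613 and 0.0634 without replicates 1, 2 and 3). A FANCD2 pseudogene is listed in the files at no more than 0.0206 RPKM, but reads of near-identical copies may be assigned to either, so the FANCD2 values are uncertain to that extent.

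The other 5 Fanconi genes did not pass the test. FANCA, a core component, had 9.49 ± 0.701 RPKM in shRNA-NC and 7.30 ± 1.76 RPKM in shRNA-UBC9 (SD, n = 3), with a log2 fold change of -0.40 and an interval of -0.79 to -0.01 (adjusted p = 0.0972). Its log2 fold change was -0.20 without shRNA-UBC9 replicate 1 and -0.56 without replicate 3, where it was called (adjusted p = 0.0276). FANCA shares 19.6% of its exonic bases with ZNF276 on the opposite strand. Log2 fold changes were -0.13 for BRIP1, a helicase that binds BRCA1, and -0.11 for the ligase FANCL. For FANCF and FANCM they were 0.04 and 0.12, with intervals of -0.21 to 0.29 and -0.20 to 0.45. The interval of FANCF, which belongs to the same complex as FANCC, included 0.

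Of the 6 checkpoint genes, 2 fell and none rose (median -0.20), against 18.0% and 18.8% of all tested genes. CHEK1, the effector kinase downstream of ATR that restrains origin firing and mitotic entry (chr11:125625163-125676255, plus strand), was measured at 8.39, 9.73 and 9.23 RPKM in shRNA-NC and 4.06, 4.50 and 4.87 RPKM in shRNA-UBC9. The highest knockdown value, 4.87 RPKM, was well below the lowest control value, 8.39 RPKM (log2 fold change -1.01, 95% confidence interval -1.25 to -0.77, adjusted p = 3.23e-04). CLSPN encodes claspin, the adaptor through which ATR phosphorylates CHEK1, and was measured at 12.6, 18.04 and 11.9 RPKM in shRNA-NC and 9.01, 10.5 and 10.4 RPKM in shRNA-UBC9. Replicate 2 of shRNA-NC stood above the other controls, and without it the log2 fold change of CLSPN was -0.30 rather than -0.48 and the call was lost (adjusted p = 0.0741 against 0.0436). The call was also lost without shRNA-NC replicate 1 or any 1 shRNA-UBC9 sample (adjusted p from 0.0622 to 0.0991), with log2 fold changes of -0.55 to -0.41, and held only without shRNA-NC replicate 3. The groups of CLSPN did not overlap with all samples included.

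The kinases upstream were not called. ATM, which responds to breaks, had 5.30 ± 0.707 RPKM in shRNA-NC and 5.09 ± 0.742 RPKM in shRNA-UBC9, and ATR, which responds to single-stranded DNA, had 4.20 ± 0.508 RPKM in shRNA-NC and 3.85 ± 0.318 RPKM in shRNA-UBC9 (SD, n = 3). The intervals of their log2 fold changes were -0.37 to 0.26 for ATM and -0.39 to 0.15 for ATR. The break-activated effector CHEK2 had a log2 fold change of -0.21 (interval -0.46 to 0.03, adjusted p = 0.157). TOPBP1, which activates ATR and had the highest level of the checkpoint genes over all samples, was measured at 13.1, 16.3 and 14.1 RPKM in shRNA-NC and 11.9, 13.02 and 12.9 RPKM in shRNA-UBC9. Its groups did not overlap, yet it missed the threshold (log2 fold change -0.19, adjusted p = 0.168). Exons of CHEK1 share 13.4% of their bases with a non-coding RNA on the opposite strand, and CHEK2 has several named pseudogenes, each listed at 0, so reads of near-identical copies leave its values uncertain.

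Within homologous recombination, 2 of 10 genes fell, a share near the 18.0% of all tested genes, and none rose (median -0.27). RAD51AP1, which stimulates strand invasion and had the highest level of this group (chr12:4538798-4560047, plus strand), was measured at 17.7, 21.4 and 19.00 RPKM in shRNA-NC and 10.7, 12.6 and 11.7 RPKM in shRNA-UBC9. The groups were separated by more than 5 RPKM (log2 fold change -0.73, 95% confidence interval -0.96 to -0.49, adjusted p = 0.00141). BARD1, the obligate partner of BRCA1 in its ubiquitin ligase, was measured at 4.52, 5.26 and 4.50 RPKM in shRNA-NC and 3.10, 3.34 and 3.74 RPKM in shRNA-UBC9 and fell without overlap (log2 fold change -0.48, 95% confidence interval -0.73 to -0.22, adjusted p = 0.0116).

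BRCA1 itself had 10.5 ± 1.30 RPKM in shRNA-NC and 8.40 ± 1.03 RPKM in shRNA-UBC9 (SD, n = 3) and a log2 fold change of -0.31 (interval -0.60 to -0.03, adjusted p = 0.0826). PALB2, which links BRCA1 to BRCA2, and RAD51C, another recombination factor, gave log2 fold changes of -0.29 and -0.32 (adjusted p = 0.0988 and 0.0957). The 3 shRNA-UBC9 samples lay below the controls for BRCA1 and RAD51C but overlapped them for PALB2. The recombination factors XRCC2 and XRCC3 and the DNA translocases RAD54L and RAD54B had log2 fold changes between -0.25 and -0.15. BRCA2, a mediator of recombination, had the lowest control level of the 38 genes (2.001 ± 0.324 RPKM in shRNA-NC and 2.34 ± 0.289 RPKM in shRNA-UBC9, SD, n = 3), and its log2 fold change was 0.22 with an interval of -0.12 to 0.56. XRCC3 shares 76.7% of its exonic bases with KLC1 on the opposite strand, RAD54L shares 19.9% with LRRC41, and RAD54B shares 66.0% with FSBP on the same strand, so their values may include reads of these genes.

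Of the 5 genes of end processing and resolution, 1 rose (20%), a share near the 18.8% of all tested genes. None fell, against 18.0% (median 0.07). The gene that rose was RAD50. RAD50, the ATPase of the MRE11-RAD50-NBN complex that tethers and trims broken ends (chr5:132556019-132646349, plus strand), was measured at 10.1, 11.6 and 11.2 RPKM in shRNA-NC and 15.4, 13.9 and 12.4 RPKM in shRNA-UBC9. The lowest knockdown sample exceeded the highest control by less than 1 RPKM (log2 fold change 0.33, 95% confidence interval 0.09 to 0.57, adjusted p = 0.0385). The call was lost when any 1 sample other than shRNA-UBC9 replicate 3 was left out, with adjusted p from 0.0514 to 0.116. It was also lost with quantile normalization (adjusted p = 0.0600) and with median scaling (0.0519). RAD50 shares 76.9% of its exonic bases with a readthrough transcript annotated as a gene of its own in GENCODE 44.

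NBN, the regulatory subunit of the same complex and the most abundant gene of this group, was measured at 12.5, 16.4 and 13.8 RPKM in shRNA-NC and 16.1, 20.5 and 17.3 RPKM in shRNA-UBC9. Its estimate, 0.33, equalled that of RAD50 to 2 decimals, but the groups overlapped and NBN was not called (adjusted p = 0.0753). It was called without shRNA-NC replicate 2 (log2 fold change 0.44, adjusted p = 0.0349) and without shRNA-UBC9 replicate 1 (0.41, adjusted p = 0.0488). The nuclease MRE11, which is not among the 38 genes, fell (log2 fold change -0.52, adjusted p = 0.00277). The estimates of the other subunits of this complex, RAD50 and NBN, were above 0. The RAD50 call held in only 6 of 16 alternatives, so a difference in direction between the subunits is uncertain. RBBP8 (CtIP), which starts resection with this complex, had 7.66 ± 0.959 RPKM in shRNA-NC and 6.23 ± 0.220 RPKM in shRNA-UBC9 (SD, n = 3) and missed the threshold (log2 fold change -0.29, adjusted p = 0.0646). The long-range nuclease EXO1 and the helicase BLM had log2 fold changes of 0.07 and -0.24, with intervals of -0.20 to 0.35 and -0.57 to 0.10.

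In the chromatin response at breaks, 1 of 4 genes fell and none rose (median -0.03), against 18.0% and 18.8% of all tested genes. MDC1, the scaffold that binds phosphorylated H2AX at breaks, was measured at 8.46, 6.95 and 7.55 RPKM in shRNA-NC and 3.99, 5.17 and 5.93 RPKM in shRNA-UBC9. The groups did not overlap, with replicate 1 of shRNA-UBC9 lowest (log2 fold change -0.61, 95% confidence interval -0.95 to -0.27, adjusted p = 0.0146), and the call was lost without shRNA-NC replicate 1 (log2 fold change -0.54, adjusted p = 0.0559). The ubiquitin ligases that act after MDC1 were not called. RNF8 had 3.82 ± 0.382 RPKM in shRNA-NC and 4.16 ± 0.204 RPKM in shRNA-UBC9, and RNF168 had 6.81 ± 0.407 RPKM in shRNA-NC and 6.96 ± 0.603 RPKM in shRNA-UBC9 (SD, n = 3). TP53BP1, the reader of this ubiquitin mark that limits resection, had the highest level of the group and was measured at 9.82, 10.6 and 11.4 RPKM in shRNA-NC and 10.6, 9.92 and 9.51 RPKM in shRNA-UBC9. Its groups overlapped (log2 fold change -0.08, adjusted p = 0.519), and 28.8% of its exonic bases are shared with TUBGCP4 on the opposite strand.

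Among the 3 genes of single-strand break and mismatch repair, 1 fell and none rose (median -0.22), against 18.0% and 18.8% of all tested genes. PARP1, the sensor of strand breaks and the most abundant of the 38 genes, was measured at 47.7, 50.1 and 46.7 RPKM in shRNA-NC and 31.7, 40.3 and 42.4 RPKM in shRNA-UBC9. Replicate 1 of shRNA-UBC9 was the lowest, and without it the log2 fold change of PARP1 was -0.22 rather than -0.35 (adjusted p = 0.0772 against 0.0481). The call was also lost without any 1 of the shRNA-NC samples or without shRNA-UBC9 replicate 2 (adjusted p from 0.0705 to 0.119), with log2 fold changes of -0.39 to -0.32. XRCC1, the scaffold recruited by PARP1, had 11.99 ± 0.331 RPKM in shRNA-NC and 10.3 ± 0.880 RPKM in shRNA-UBC9 and missed the threshold (log2 fold change -0.22, adjusted p = 0.0910). MSH6, which recognises mismatches, had 13.1 ± 2.004 RPKM in shRNA-NC and 11.3 ± 1.08 RPKM in shRNA-UBC9 and was not called (SD, n = 3, log2 fold change -0.21, adjusted p = 0.229). MSH6 shares 22.7% of its exonic bases with FBXO11 on the opposite strand.

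**Figure D2:**
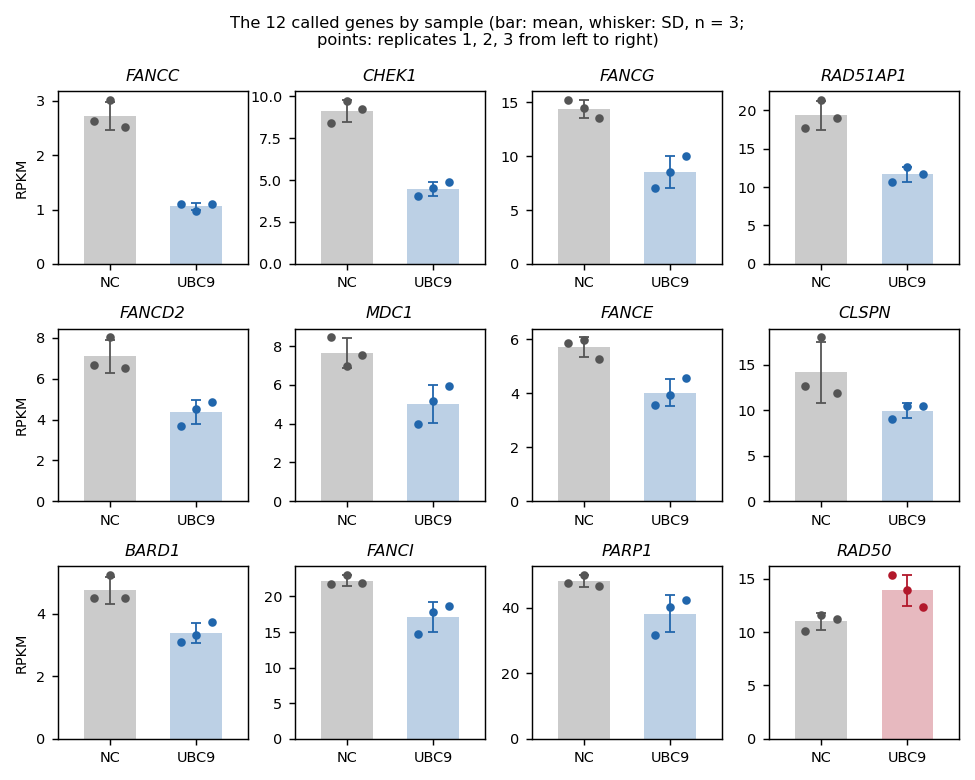
RPKM (y axis, from 0) of the 12 genes that passed the test, in the shRNA-NC samples (NC, grey) and the shRNA-UBC9 samples (UBC9, blue where lower and red where higher); points are samples, bars means and whiskers SD (n = 3). No gene shows overlapping groups, and the gap is widest relative to level for FANCC (2.53 to 3.02 against 0.98 to 1.10 RPKM) and CHEK1 (8.39 to 9.73 against 4.06 to 4.87 RPKM).

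The calls differed in how far they depended on single samples and settings. Across the 16 alternative analyses, BARD1, RAD51AP1, CHEK1, FANCD2, FANCE and FANCG were called lower in all 16, and FANCC in all 15 that tested it. MDC1 was called in 15, FANCI in 13, CLSPN in 9, PARP1 in 8 and RAD50 in 6. Among the genes not called, 22 of 26 were called in none of the alternatives, and the exceptions were NBN (called in 4), RBBP8 (3), FANCA (1) and XRCC1 (1). The half-width of their 95% intervals ranged from 0.21 to 0.39 on the log2 scale. Groups did not overlap for 5 of the 26, namely BRCA1, RAD51C, RBBP8, TOPBP1 and XRCC1, each lower in shRNA-UBC9. Such a separation was seen in 25.4% of all tested genes, but that share includes genes that were called, so it is not a like comparison.

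The samples of a group also differed from each other in a shared way. Replicate 1 of shRNA-UBC9 was the lowest of its group for 29 of 38 genes, compared with 5183 of 12428 tested genes. Relative to the mean of shRNA-NC, the median over the 38 genes was -0.35 in replicate 1, -0.18 in replicate 2 and -0.16 in replicate 3 on the log2 scale. For the 11 genes that fell, the medians were -0.85, -0.55 and -0.41. In shRNA-NC, replicate 2 was the highest for 29 of 38 genes, compared with 5115 of 12428 tested genes, and the sample medians over the 38 genes were -0.11, 0.15 and -0.08. The GC content of transcripts also moved with the samples. Across 11801 genes, the deviation of each sample from the mean of all 6 samples was correlated with GC content. The Spearman correlation ranged from -0.27 in shRNA-NC replicate 2 to 0.29 in shRNA-UBC9 replicate 3, and includes any difference between the groups. After a correction for GC content, chosen after seeing the data, 13 genes were lower and 2 higher.

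**Figure D3:**
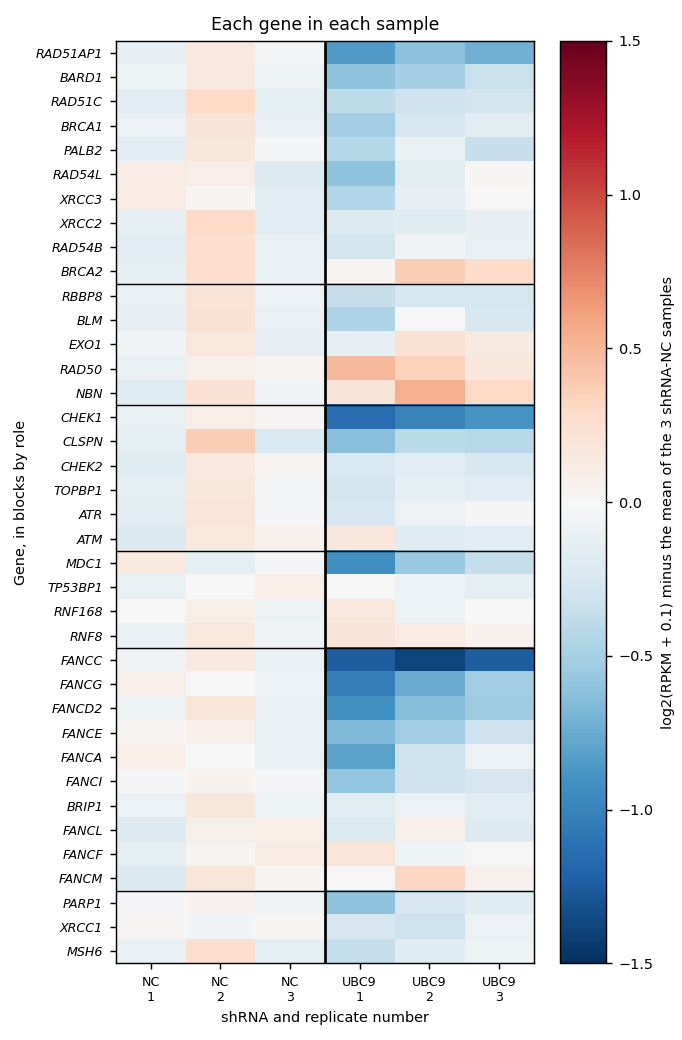
Log2(RPKM + 0.1) of each of the 38 genes (rows, in blocks by role) in each sample (columns) minus the mean of the 3 shRNA-NC samples; blue is lower and red higher. Replicate 1 of shRNA-UBC9 is the darkest blue column for most genes, with a median of -0.35, and replicate 2 of shRNA-NC is reddish for most genes, with a median of 0.15.

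Genes of S phase and mitosis were also lower. Of 30 such genes, 22 fell (73.3%) and none rose, against 18.0% and 18.8% of all tested genes. The 30 genes had a median log2 fold change of -0.56 and a range of -1.06 to 0.17. TOP2A, the topoisomerase that untangles chromosomes before mitosis, was measured at 104, 139 and 119 RPKM in shRNA-NC and 54.8, 53.3 and 64.4 RPKM in shRNA-UBC9 (log2 fold change -1.06, adjusted p = 5.83e-04). TYMS, which makes thymidylate for DNA synthesis, had a log2 fold change of -1.004 (adjusted p = 0.00104), and MCM6, a subunit of the replicative helicase, one of -0.90 (adjusted p = 0.00194). Replicate 1 of shRNA-UBC9 was the lowest of its group for 27 of these 30 genes, and the sample medians relative to shRNA-NC were -0.85, -0.53 and -0.38, beside -0.35, -0.18 and -0.16 for all 38 repair genes. Their promoters held an E2F-type octamer in 11 of 26 (42.3%), CCAAT in 22 of 26 (84.6%) and CHR in 9 of 26 (34.6%). In these bulk samples, fewer cells in S phase and less RNA per cell cannot be told apart, and the part of cell cycle state in the changes of the repair genes was not tested.

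Further genes of the repair pathways were counted in the same fit. Of 127 further genes, 38 fell (29.9%) and 10 rose (7.87%), against 18.0% and 18.8% of all tested genes. The median log2 fold change of the 127 was -0.14, and replicate 1 of shRNA-UBC9 was the lowest of its group for 73. The lower count ranged from 24 to 34 when 1 sample was left out, and was 24 without shRNA-NC replicate 3 and 25 without shRNA-NC replicate 2. Without shRNA-NC replicate 3, 6 genes rose. The DEGs among them were UNG, the uracil glycosylase that starts base excision repair, and CDC25B, a phosphatase that drives entry into mitosis. UNG was measured at 17.1, 19.2 and 16.4 RPKM in shRNA-NC and 4.40, 6.71 and 6.53 RPKM in shRNA-UBC9 (log2 fold change -1.59, 95% confidence interval -1.95 to -1.22, adjusted p = 3.15e-04), an estimate below that of each of the 38 genes. CDC25B had a log2 fold change of -1.10 (adjusted p = 0.00401).

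The counts by pathway stand beside 18.0% lower and 18.8% higher among all tested genes. By pathway, 8 of 22 further genes of base excision and single-strand break repair fell and 3 rose, with TDG, a thymine glycosylase, at -0.84. Of 10 translesion synthesis genes, 5 fell and none rose, including the polymerase POLH (log2 fold change -0.53, adjusted p = 0.00392). Of 26 further genes of homologous recombination and resolution, 7 fell and 3 rose. RPA1, which coats single-stranded DNA, fell (log2 fold change -0.60, adjusted p = 0.00284), whereas SFR1, a recombination cofactor, rose (log2 fold change 0.98, adjusted p = 9.14e-04). Of 26 further checkpoint and chromatin response genes, 8 fell and 2 rose, and TIMELESS, of the fork protection complex, fell (log2 fold change -0.95, adjusted p = 0.00198). Of 11 end joining genes, 3 fell and 2 rose. PRKDC, the catalytic subunit of DNA-PK, fell (log2 fold change -0.58, adjusted p = 0.00407), whereas LIG4, the ligase of this pathway, rose (log2 fold change 0.56, adjusted p = 0.00594).

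Smaller counts were found elsewhere. Of 11 further Fanconi genes, 2 fell (18.2%), near the 18.0% of all tested genes, and none rose, against 18.8%. The 2 were CENPX (log2 fold change -0.70, adjusted p = 0.00942), a histone-fold partner of FANCM, and USP1 (log2 fold change -0.50, adjusted p = 0.00625), the protease that removes ubiquitin from FANCD2. Of 6 further mismatch repair genes, 2 fell (33.3%) and none rose, against 18.0% and 18.8% of all tested genes. PMS2 was among those that fell (log2 fold change -0.67, adjusted p = 0.00478). Of 15 nucleotide excision repair genes, 3 fell (20%), also near the 18.0% of all tested genes, and none rose. The damage sensor DDB2 was at -0.58 (adjusted p = 0.00450).

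**Figure D4:**
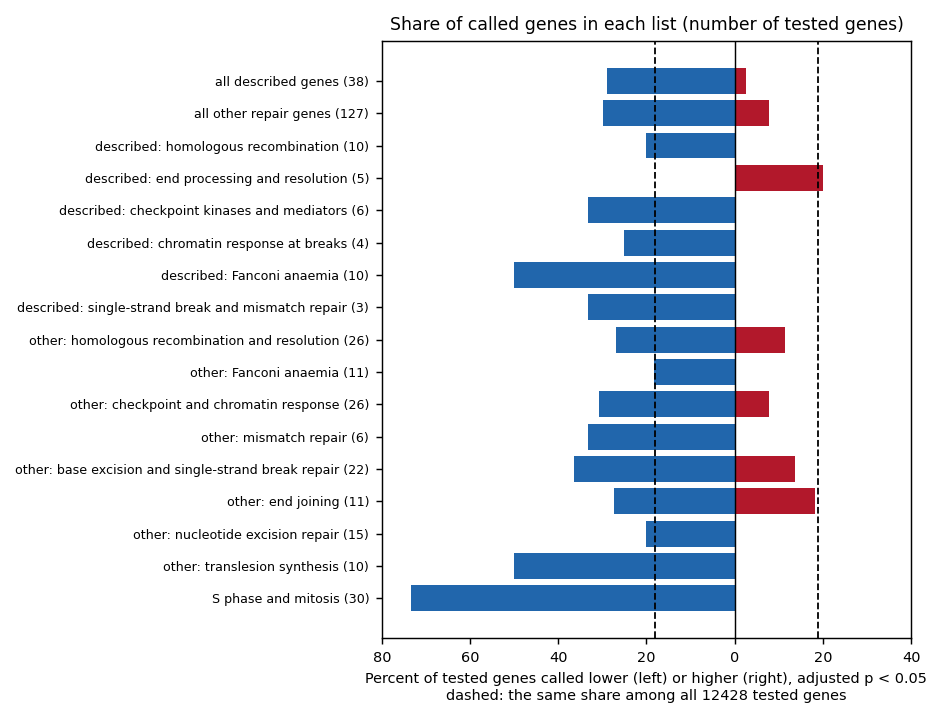
Percent of tested genes called lower (left, blue) and higher (right, red) in the 38 described genes, in further repair genes and in genes of S phase and mitosis, with the number of tested genes in parentheses; dashed lines mark the shares among all tested genes, 18.0% and 18.8%. The lower share is 28.9% in the described genes, 29.9% in the further repair genes and 73.3% in S phase and mitosis genes, and some lists hold as few as 3 genes.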

How the data were processed

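RNA-seq of T24 cells comprised 3 shRNA-NC and 3 shRNA-UBC9 samples, grouped by their titles. After trimming, the reads were aligned by the authors to GRCh38 (hg38) in the CLC Biomedical Genomics Workbench with its default settings, and RPKM of 58174 genes per sample were deposited. The annotation release, strandedness, filters and treatment of multi-mapping reads are not given in the sources used here.

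RPKM were taken to log2(RPKM + 0.1), genes at 0.5 RPKM or more in at least 3 of 6 samples were kept (12428 genes), and the test was limma 3.58.1 (R 4.3.3) with lmFit, eBayes with an intensity trend and Benjamini-Hochberg adjustment over all tested genes. Adjusted p-values and intervals come from limma. RPKM correct for gene length and total reads but not for RNA composition, and a fold change on this scale understates that of low genes. With 3 samples against 3, no exact permutation test reaches p below 0.1.

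Whole reads were recovered from the RPKM of 100% of tested genes (tolerance 0.02 reads), as the smallest whole numbers that fit. They served for depth and for limma-voom as an alternative. The scripts were tested on simulated data.

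Values per sample are given for each described gene that passed the test and for the most abundant gene of each role. From other lists at most 3 called genes with the largest changes are named. The described genes and lists were chosen with earlier results of these data known. The level of the gene targeted by the shRNA and some other genes are not reported here. Coordinates and exon overlaps are from GENCODE 44 and promoters from RefSeq, neither being the annotation of the files. Alternatives were other pseudocounts, filters and scalings, no trend, the replicate number as a block, the removal of each sample in turn and, chosen after seeing the data, a GC correction and limma-voom. Python 3.11.15, numpy 2.4.6, pandas 2.3.3 and matplotlib 3.10.9 were used.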

Additional observations from a re-analysis of the deposited data

How the results depend on the processing

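The count of 11 lower genes among the 38 was between 9 and 13 under other pseudocounts, filters, scalings, no intensity trend, GC correction and limma-voom on recovered reads, and between 7 and 11 when 1 sample was left out, with 7 without shRNA-NC replicate 1, where CLSPN, MDC1, FANCI and PARP1 were lost. The count of higher genes was 0 with no filter, with quantile normalization, with median scaling and with no intensity trend, was 2 with the GC correction, and was 0 to 1 when 1 sample was left out. The count of down-regulated DEGs was 0 with a pseudocount of 1, where FANCC had a log2 fold change of -0.86, was 1 when 1 RPKM was required in every sample, since FANCC was then not tested, was 1 with the GC correction, and was 1 to 2 when 1 sample was left out, with 1 without shRNA-NC replicate 2 and 1 without shRNA-UBC9 replicate 1. The median log2 fold change of the 38 genes stayed between -0.27 and -0.16. Of the further repair genes, 24 to 34 were lower and 6 to 9 higher when 1 sample was left out, and of all tested genes 1401 to 2003 were lower, with 1401 without shRNA-NC replicate 3.

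The direction changed for genes close to 0 that were not called. RNF168 was at -0.0036 with quantile normalization and at -0.0130 with median scaling, where FANCF was at -0.00086. When 1 sample was left out, RNF168 ranged from -0.0367 to 0.0837, FANCF from -0.0345 to 0.0998 and ATM from -0.173 to 0.0190. Nothing states that equal replicate numbers of the 2 groups were paired. The correlations of deviations from the group mean for the same number were -0.37, 0.07 and -0.17. The highest of all pairs was 0.53, between shRNA-NC replicate 1 and shRNA-UBC9 replicate 3. Each shRNA-NC sample correlated best with another number. Deviations of 3 samples from their own mean sum to 0, so these correlations are constrained and cannot decide whether samples were paired. With a replicate block, 10 of the 38 genes were lower and 1 was higher, with NBN gained (adjusted p = 0.0438) and RAD50 and PARP1 lost (adjusted p = 0.0886 and 0.0722), and 25 further repair genes were lower. The cause of these differences was not tested.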

Other observations

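Genes induced by p53 and by DNA damage did not move one way. Of 20 such genes, 6 rose in shRNA-UBC9, against 18.8% of all tested genes, and 3 fell, against 18.0%, with a median log2 fold change of 0.10. CDKN1A, the cyclin-dependent kinase inhibitor p21, was measured at 9.48, 8.72 and 8.91 RPKM in shRNA-NC and 45.3, 36.9 and 33.2 RPKM in shRNA-UBC9 and rose without overlap between groups (log2 fold change 2.07, 95% confidence interval 1.79 to 2.34, adjusted p = 2.18e-05). SESN2, a stress-induced regulator of growth signalling, also rose (log2 fold change 1.46, adjusted p = 0.00124). PLK2, a kinase induced by p53, was measured at 41.7, 51.5 and 43.7 RPKM in shRNA-NC and 12.95, 19.9 and 19.2 RPKM in shRNA-UBC9 and fell (log2 fold change -1.41, adjusted p = 6.17e-04). In shRNA-UBC9, CDKN1A was highest in replicate 1, and PLK2 was lowest in the same sample. This list was not tested as a set.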
